A study of Homo sapiens with 2 samples.

Results

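PHF8 chromatin immunoprecipitation sequencing (ChIP-seq) peaks of RKO cells, an established human colon carcinoma line, were compared at 353 places near protein-coding genes where the signal of the APOC2 library was well above that of the vector library. PHF8 had been immunoprecipitated from cells transfected with empty vector, or with a plasmid that overexpresses APOC2, an apolipoprotein gene, with 1 library and 1 peak table for each condition. The host cells were RKO in both groups, and the labels gave neither the time after transfection nor the level that APOC2 reached. To find the members, overlapping vector and APOC2 peaks were paired, longest overlap first with each peak used once, which gave 3300 pairs. Of these, 1003 had the midpoint of the vector peak within 1 kb of an annotated start or end of a protein-coding RefSeq gene (GRCh38.p14), and 353 of the 1003 had a log2 ratio of pileup, APOC2 over vector after scaling for depth, of at least 0.7, which is 1.62-fold. The other 650 pairs are called the other coding-gene pairs. Pileup is the number of fragments stacked at the summit of a peak, and both libraries are given here in the units of the control.

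PHF8 is a histone demethylase that reads trimethylated lysine 4 of histone H3 through its PHD finger and removes methyl groups from lysine 9 of histone H3 and lysine 20 of histone H4. The mark that it reads lies on the nucleosomes around active, CpG-rich promoters, so PHF8 is known as a coactivator found at the starts of many genes. It has been tied to the cell cycle, to ribosomal RNA genes and to X-linked intellectual disability. The series asked whether APOC2 raises the binding of PHF8 to chromatin.

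With 1 library per condition there was no replicate error, so no difference between the libraries was tested, and the intervals below cover counting error only. The members were chosen by their pileups in these 2 libraries, so their rise is a description and not a result. The ratio passed 0.7 in 35.2% of the coding-gene pairs, in 13.9% of all 3300 pairs and in 4.66% of the 2297 pairs away from coding-gene boundaries. The median log2 ratio was 0.57 (95% interval 0.54 to 0.60) over the 1003 coding-gene pairs and -0.003 (-0.02 to 0.02) away from such boundaries. In 92.2% of the coding-gene pairs it was above 0. The pairs away from boundaries also differed in other ways. Their median vector pileup was 20.8 and their median vector background 0.998 fragments, against 29.7 and 5.00 at the coding-gene pairs. The part of these differences in the ratio was not tested.

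Sequences before the start are shown for the first 4 members, by ratio, that had an entry in the RefSeq promoter table (GRCh38.p14), because they show how differently the peaks can sit on the start of a gene. IFI27L1 encodes an interferon-alpha-inducible protein of mitochondria, and only the 107 bases between its start and that of the divergent helicase gene DDX24 are printed (chr14:94081203-94081309, plus strand). NANP (chr20:25624015-25624264, minus strand) encodes a phosphatase of sialic acid synthesis. ITGA2 (chr5:52989102-52989351, plus strand) encodes the alpha-2 subunit of a collagen-binding integrin. NDUFV2 (chr18:9102449-9102698, plus strand) encodes a core subunit of mitochondrial complex I. Each runs 5′ to 3′ towards the start of its gene, and capitals mark GGGCGG or CCGCCC, the letters of the SP1/KLF motif, and CCAAT or ATTGG, those of NFY.
IFI27L1: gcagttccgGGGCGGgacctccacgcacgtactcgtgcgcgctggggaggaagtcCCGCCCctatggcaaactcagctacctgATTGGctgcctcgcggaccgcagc
NANP: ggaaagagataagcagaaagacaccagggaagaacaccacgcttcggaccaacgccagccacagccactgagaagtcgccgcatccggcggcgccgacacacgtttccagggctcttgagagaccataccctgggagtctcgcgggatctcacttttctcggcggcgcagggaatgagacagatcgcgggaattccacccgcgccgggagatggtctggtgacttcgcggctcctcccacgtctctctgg
ITGA2: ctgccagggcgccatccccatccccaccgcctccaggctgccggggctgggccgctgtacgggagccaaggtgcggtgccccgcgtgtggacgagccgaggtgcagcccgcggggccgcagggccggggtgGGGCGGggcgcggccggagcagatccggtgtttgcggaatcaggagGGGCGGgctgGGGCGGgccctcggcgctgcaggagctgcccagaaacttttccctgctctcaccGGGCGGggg
NDUFV2: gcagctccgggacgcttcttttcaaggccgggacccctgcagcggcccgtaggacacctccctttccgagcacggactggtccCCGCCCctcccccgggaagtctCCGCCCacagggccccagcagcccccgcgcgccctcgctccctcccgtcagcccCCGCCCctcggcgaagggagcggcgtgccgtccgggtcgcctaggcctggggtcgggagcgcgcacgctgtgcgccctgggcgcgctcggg
Over IFI27L1 and ITGA2 the vector peak covered 0 of these bases and the APOC2 peak covered all of them, 107 and 250. Over NANP the vector peak covered 152 and the APOC2 peak 156 of the 250 bases. Over NDUFV2 the peaks lay almost wholly inside the gene, with 0 and 6 bases covered.

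The signal of the members spanned a wide range in the vector library. Their vector pileup was lowest at 9.90, had a median of 28.7 (26.7 to 29.7) and was highest at 66.3 control-scaled fragments. In the APOC2 library the lowest was 18.02, the median 52.9 (50.5 to 55.3) and the highest 126. The other coding-gene pairs had a vector median of 29.7 (28.7 to 30.7) and an APOC2 median of 38.4 (36.04 to 39.6). The rule divides one of these values by the other, so the difference from the other pairs follows from the choice. Of the 293 coding-gene pairs with the lowest vector pileups, 9.90 to 23.8, 114 were members (38.9%, Wilson interval 33.5 to 44.6%). Of the 224 with the highest, 37.6 to 113.8, 75 were (33.5%, 27.6 to 39.9%). Both shares were close to the 35.2% of all coding-gene pairs.

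**Figure D1:**
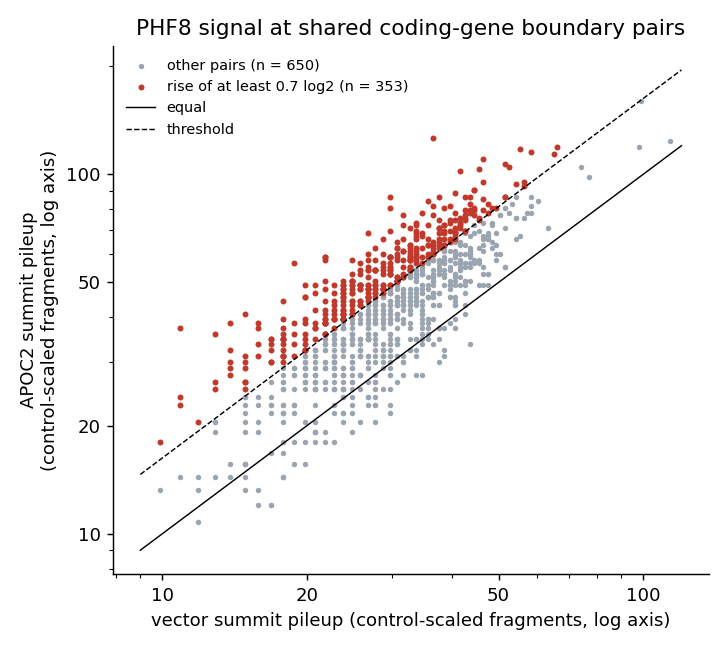
Summit pileup of the 1003 shared coding-gene boundary pairs in control-scaled fragments, vector on the x axis and APOC2 on the y axis, both logarithmic. Each point is 1 pair, the solid line marks equal signal and the dashed line the threshold of 0.7 log2. The 353 members form the upper edge of a single cloud whose median log2 ratio is 0.57.

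The plot of vector against APOC2 pileup shows 1 continuous cloud. The log2 ratios of the 1003 pairs had an SD of 0.36, and Poisson counting of the fragments at both summits alone would give an SD of 0.37. Pairs needed a called peak in both libraries and summits are maxima, so the Poisson value is a rough reference. It does not show what accounts for the spread. Counting error was wide for single pairs. For 299 of the 353 members the 95% counting interval of the ratio lay above 0, as for 37 of the 650 other coding-gene pairs. The interval uses the pileups by which the members were chosen, so this difference follows from the choice. For 336 of the members and 640 of the others the interval included 0.57, the median of all coding-gene pairs. Of the other coding-gene pairs, 617 of 650 had intervals that reached 0.7. At this depth most members could thus not be told apart from a coding-gene pair with the median rise. Nearest to the threshold, RAB2A, RXYLT1 and the pair between PI4KA and SNAP29 lay inside with ratios of 0.70, 0.70 and 0.71. RGS11, ZNF792 and NRF1 lay outside with 0.695 each.

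Pairing by overlap had a limit at the top of the list. At 16 of the 353 members (4.53%, 2.81 to 7.24%) the APOC2 peak spanned 2 or more vector peaks, and at 12 of the 650 other coding-gene pairs (1.85%, 1.06 to 3.199%). At 12 members a vector peak with a higher pileup than the paired one lay in the same APOC2 peak. Set against the strongest vector peak in the APOC2 peak, a comparison chosen after seeing the data, 347 of the 353 kept a log2 ratio of at least 0.7. The 6 that did not were EPHB4 with SLC12A9 (0.28), CCSER1 (0.38), MBTPS1 (0.57), VPS13B (0.62), MNX1 (0.66) and TRAPPC13 with SHLD3 and TRIM23 (0.69).

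The 2 highest ratios were of this kind. At the shared boundary of SHARPIN, a subunit of the linear ubiquitin chain assembly complex, and MAF1, a repressor of RNA polymerase III (chromosome 8, 144103380 to 144104967 in the APOC2 library), the pileup was 36.6 in the vector library and 126 after APOC2, a log2 ratio of 1.78 (counting interval 1.23 to 2.37). The paired summits lay 1143 bp apart, and against the other vector peak there, with 70.3, the ratio was 0.84. GRIP1, a synaptic scaffold gene on chromosome 12, had 10.9 and 37.2, with a ratio of 1.78 (0.74 to 2.92), and 0.71 against a vector peak with 22.8. For GRIP1, pileup over background with no 1 added gave 0.62, under the threshold, with backgrounds of 1.34 and 3 fragments. By pileup both stayed past the threshold but lost their place at the top.

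HGH1, an adaptor gene for the folding of elongation factor 2, had 29.7 and 86.5 (1.54), and 1.28 against a stronger vector peak beside it. For NANP the values were 13.9 and 38.4 (1.47), with summits 70 bp apart. TONSL, a gene of replication fork repair, and ZHX1, a gene of a zinc finger and homeobox repressor, both on chromosome 8, each had 21.8 and 58.9 (1.43). In these members the APOC2 summit lay inside the vector peak, so both values describe 1 place.

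At 2 more of the 10 highest, IFI27L1 with DDX24 (12.9 and 36.04, ratio 1.49) and ITGA2 (14.8 and 40.8, ratio 1.46), the APOC2 summit lay outside the vector peak (406 bp from its summit in the first pair), where the vector library had no called peak. For IFI27L1 with DDX24 the log2 ratio was 0.39 with fold enrichment and 0.18 when pileup was divided by background with no 1 added to either, both under 0.7, and the background was 2.02 and 5 fragments. An APOC2 summit outside the paired vector peak was found at 22 of the 353 members (6.23%, 4.15 to 9.26%). The same held for 34 of the 650 other coding-gene pairs (5.23%, 3.77 to 7.22%). These counts include 8 members and 1 other pair where the summit lay inside another vector peak. In 7 of the 353 members (1.98%) the whole counting interval lay above 0.7. The rule fixes this count at 0 for the other coding-gene pairs. The interval uses the same pileups as the rule, so the 7 are a description and not a test. Beside SHARPIN with MAF1 and GRIP1, whose ratios depend on the pairing, the 7 included HGH1, the boundary of POMT2 and GSTZ1 (41.6 and 102) and DPY19L4 (46.5 and 111). The last 2 boundaries were named after their values had been seen.

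The members with the strongest vector signal had ratios between 0.71 and 1.09. NDUFB2, an accessory subunit of complex I on chromosome 7, had the highest vector pileup, 66.3, and 119 after APOC2 (ratio 0.84, counting interval 0.38 to 1.31). NAE1, which encodes a subunit of the enzyme that activates NEDD8, had 65.3 and 114 (0.81). The start of PLCG1, the gene of phospholipase C gamma 1, which overlaps LOC124904903, had 58.4 and 115 (0.98). EXD3 with NOXA1 (0.71), SH3GLB2 (0.75), LOC124900276 (1.09), DNAJC25 (0.78), DNLZ with CARD9 (1.05) and EXOSC2 (0.75) were 6 of the 10 strongest, and all of these lie on chromosome 9. INO80D, a subunit gene of the INO80 chromatin remodeller, was the remaining one, with 52.5 and 105 (0.99). Chromosome 9 held 50 of the 353 members and 133 of all 1003 coding-gene pairs. Strong vector peaks on it were not particular to members. Its other coding-gene pairs included CCDC107 (113.8), DPH7 (77.2) and GLE1 (63.3), while POLR2J3 (98.95) and AMPD3 (97.96), also not members, lay on chromosomes 7 and 11. EXOSC2, a gene of the RNA exosome, had the highest fold enrichment of any member in the vector table, 12.7.

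Peaks were longer in the APOC2 library at 335 of the 353 members (94.9%, 92.1 to 96.8%) and at 558 of the 650 other coding-gene pairs (85.8%, 83.0 to 88.3%). The members' median length was 296 bp (281 to 321) with vector and 559 bp (492 to 590) with APOC2. Among the other coding-gene pairs it was 279 and 430 bp. The median log2 length ratio was 0.61 (0.52 to 0.70) against 0.39 (0.34 to 0.45), and 28.9% of members (24.4 to 33.8%) at least doubled, against 17.2% (14.5 to 20.3%). Length was called from the same pileups that the rule used and adds no independent evidence.

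**Figure D2:**
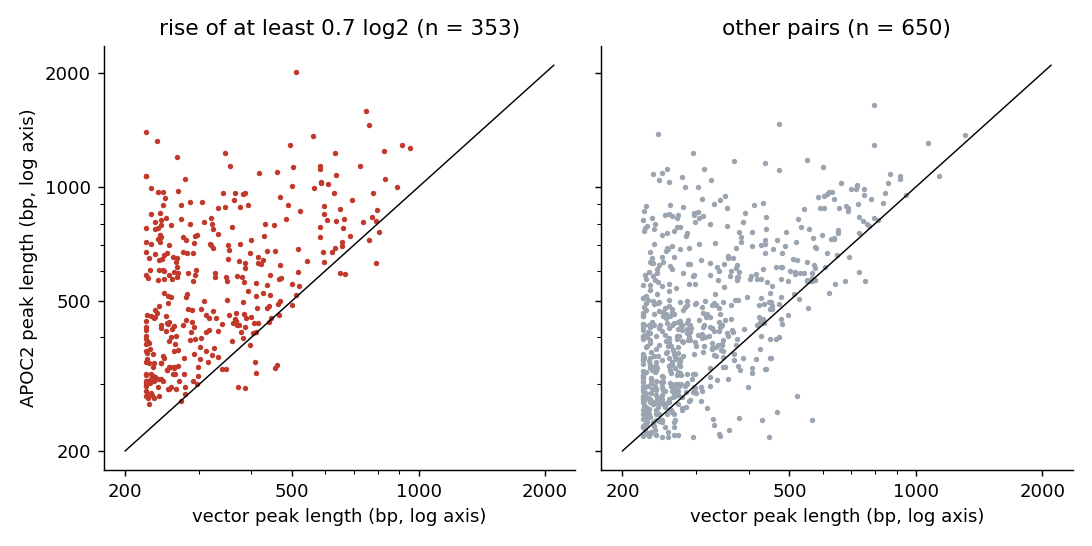
Length of the paired peaks in bp, vector on the x axis and APOC2 on the y axis, both logarithmic, for the 353 members (left) and the 650 other coding-gene pairs (right). Each point is 1 pair and the line marks equal length. Above the line lie 335 of the members and 558 of the others.

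As the plot of peak lengths shows, the growth spread over a wide range at a given vector length. The longest APOC2 peak of a member was 2016 bp, at VAV2, and spanned 2 vector peaks. TMEM51 had the highest log2 length ratio, 2.64 (from 224 to 1401 bp), with a vector peak 967 bp from the annotated boundary. VPS13B, which encodes a lipid transfer protein of the Golgi, went from 238 to 1322 bp. The tyrosine phosphatase gene PTPN2 went from 224 to 1072 bp, and NR2C2, an orphan nuclear receptor gene, from 224 to 1069 bp. The boundary shared by TRAPPC13, SHLD3 and TRIM23 went from 266 to 1198 bp, and there and at VPS13B the APOC2 peak spanned 2 vector peaks. Among the members whose APOC2 peak held 1 vector peak the median log2 length ratio was 0.57, and among the 16 others it was 1.37. In the opposite direction 17 members (4.82%) had a shorter peak in the APOC2 library. The lowest log2 length ratio, -0.46, was at TXNRD3, a thioredoxin reductase gene (from 454 to 331 bp). NCOA6 (459 to 337 bp), the mitochondrial DNA polymerase gene POLG (385 to 293 bp), PITRM1 (410 to 321 bp) and ZYG11B (371 to 295 bp) followed, although their pileups were higher in the APOC2 library.

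Position relative to the start of the gene was not part of the rule beyond the 1 kb window. Of the 254 members whose nearest boundary had a known strand, 254 lay nearest to a gene start (100%, 98.5 to 100%), as did 479 of 483 other coding-gene pairs (99.2%). For the 99 members left, which include all 71 on chromosome 8, the strand was not known. The edges were measured at 205 members with a single coding-gene boundary in the window. There the median vector peak began 25 bp (13 to 37) and ended 302 bp (285 to 328) downstream of the annotated start, with its summit at 163 bp (152 to 172). The median APOC2 peak began at -24 bp (-44 to -16), that is, upstream of the start, and ended at 408 bp (380 to 440), with its summit at 144 bp (133 to 157). The median summits thus lay inside the gene in both libraries, while the median APOC2 peak also reached over the start.

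**Figure D3:**
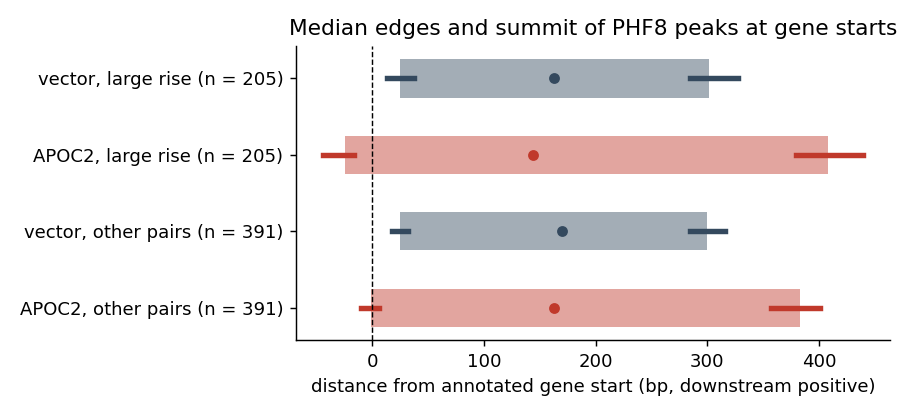
Median upstream edge, downstream edge (bar ends) and summit (dot) of the peaks relative to the annotated gene start in bp, for 205 members and 391 other coding-gene pairs, vector in grey and APOC2 in red. Thick lines are 95% intervals of the median edges and the dashed line is the gene start. The members' APOC2 peaks reach from -24 to 408 bp, past the start that the median vector peak does not reach.

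The start itself lay within the vector peak at 50 of these 205 members (24.4%, 19.0 to 30.7%) and within the APOC2 peak at 127 (62.0%, 55.1 to 68.3%). Among 391 other coding-gene pairs the shares were 22.8% (18.9 to 27.2%) and 44.5% (39.7 to 49.5%). As the plot of median edges shows, the vector peaks of both groups lay alike, with upstream edges at 25 bp in each. The members' gain was 51 bp (44 to 64) upstream and 51 bp (43 to 69) downstream in the median, and 97 of the 205 (47.3%, 40.6 to 54.1%) grew more on the downstream side. Among the other coding-gene pairs the gain was 30 bp (25 to 35) upstream and 45 bp (33 to 55) downstream. Midpoints of the vector peaks were 192 bp (179 to 207) from the boundary in members and 179 bp (170 to 191) in the others.

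The local background, which the caller takes from the control, was recovered from pileup and fold enrichment. Scaled to the control, its median was 5.00 fragments at the members in both the vector table (4.93 to 5.15) and the APOC2 table (4.796 to 5.01), and 5.00 in both tables at the other coding-gene pairs. The median log2 ratio of background at the members was -0.0002 (-0.04 to -0.0001). Where the paired summits lay within 5 bp, 11 of 21 members (52.4%) and 25 of 65 other coding-gene pairs (38.5%) had the same background to within 0.02 fragments, and a further 9 members and 24 others had a log2 ratio of -0.039. With summits over 50 bp apart, 19 of 137 members (13.9%) and 34 of 250 others (13.6%) had the same background. Over all distances it was the same at 82 of 353 members (23.2%) and 157 of 650 others (24.2%). That value was also the most common ratio other than 0 over all coding-gene pairs, and the shortest peaks of the tables, 218 and 224 bp, have the same log2 ratio of -0.039. At 166 of the 353 members (47.0%, 41.9 to 52.2%) the backgrounds differed by under 0.1 log2, and over all members the log2 ratio ran up to 1.84 and down to that of 4 against 2 fragments. Their median fold enrichment was 4.95 (4.75 to 5.11) with vector and 9.13 (8.62 to 9.47) with APOC2. Which control stood behind each table is not given in the sources used here.

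**Figure D4:**
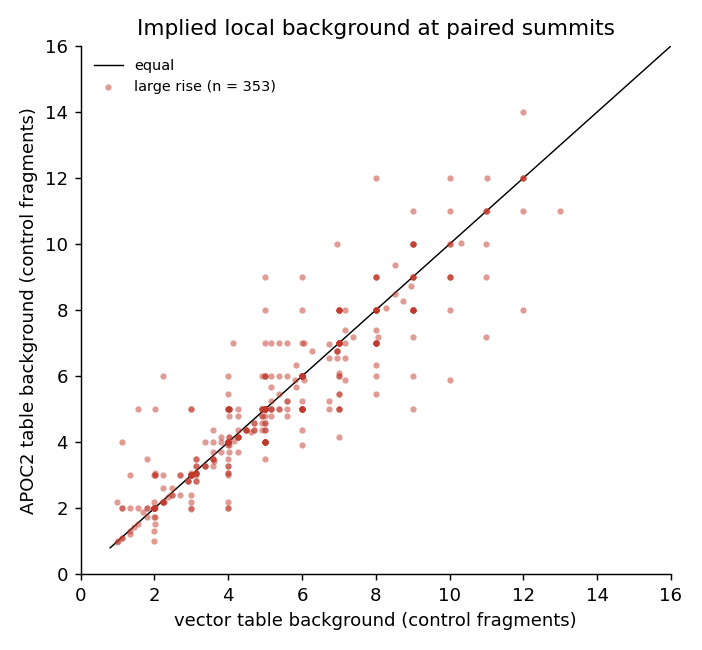
Local background at the paired summits of the 353 members in control fragments, vector table on the x axis and APOC2 table on the y axis. Each point is 1 pair and the line marks equal values. Points lie along the line with a median of 5.00 in both tables, and TRAPPC13 with its neighbours (1.12 and 4) is among the farthest above it.

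The background could differ between the tables at any distance of the summits. The largest difference in members was 0.19 log2 with summits within 5 bp, 1.00 over 5 to 50 bp and 1.84 beyond 50 bp. Where it differed, the ratio of fold enrichment differed in size from that of pileup. At 84 members the background was higher in the APOC2 table by over 0.1 log2, and their median log2 ratio of fold enrichment was 0.58. At 103 members it was lower by over 0.1, with a median of 1.04, and at the 166 between them it was 0.81. The plot of both backgrounds shows the extremes. At TRAPPC13, SHLD3 and TRIM23 the background went from 1.12 to 4 fragments, and fold enrichment was 8.87 and 6.70 while pileup was 17.8 and 33.6. ARFGEF3, which encodes a regulator of vesicle traffic (background 1.57 and 5), and the shared start of TRAPPC11 and RWDD4 (2.24 and 6) also had negative log2 ratios of fold enrichment, -0.13 and -0.14. They were the 3 members with a negative ratio. At the opposite end, SLC46A1, the proton-coupled folate transporter gene, and LRIG1, a gene of an ErbB receptor antagonist, each had 4 fragments in the vector table and 2 after APOC2. Their log2 ratios of fold enrichment, 1.58 and 1.61, exceeded those of pileup, 0.97 and 1.00. TEAD1 (2 and 1), SMAGP (4 and 2.18) and RINT1 (9 and 5) followed.

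Base composition was read from the 300-base promoter windows (250 before to 50 after the start) of 255 members' genes, 481 genes of other coding-gene pairs and 15843 coding genes in the promoter table, which holds none of chromosome 8. The median GC content was 69.7% (68.7 to 71.3%) for members, 67.3% (66.3 to 68.7%) for the others and 62.7% (62.7 to 63.0%) for all. The number of CpG dinucleotides was 33 (31 to 35), 29 (27 to 30) and 22 (22 to 22). Of the 247 promoters of coding-gene pairs with the lowest GC content (up to 64%), 27.9% (22.7 to 33.8%) were of members, and of the 246 with the highest (72.3% and above), 39.8% (33.9 to 46.1%). GC content, which can also change the yield of a library, moved with membership, and its part in the ratio was not tested.

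On both strands of these windows 10 motifs were searched, and matches describe letters only. CCAAT, the letters of NFY, occurred in 68 of 255 member promoters (26.7%, 21.6 to 32.4%), in 183 of 481 others (38.05%, 33.8 to 42.5%) and in 36.4% of all coding promoters. Among the promoters with the highest GC content it occurred in 14.3% (8.70 to 22.6%) of members and 30.4% (23.6 to 38.2%) of the others, and among those with the lowest in 34.8% (24.6 to 46.6%) and 42.1% (35.1 to 49.5%). GGGCGG, the letters of SP1/KLF, occurred in 83.9% (78.9 to 87.9%) of members, 79.2% (75.4 to 82.6%) of the others and 58.5% of all. CCGGAAG (ETS) occurred in 18.8%, 19.96% and 14.2%, and AAGATGGCG (YY1) in 5.10%, 3.74% and 2.74%. TATAAA occurred in 3.92%, 3.95% and 9.63%. The NRF1 palindrome occurred in 1.57%, 3.74% and 1.75%, TGACGTCA (CREB) in 3.53%, 3.33% and 2.59% and CACGTG (E-box) in 8.24%, 8.73% and 8.88%. The forms TTTGGCGC (0.392%, 1.25% and 0.890%) and TTTCCCGC (3.53%, 2.08% and 2.18%) stood for E2F. Of the 10, CCAAT was the one whose intervals for members and other coding-gene pairs did not overlap. With 10 motifs searched after seeing the data, this is a description and not a test.

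The members touched 411 coding genes, 35.2% of the 1168 genes at shared coding-gene pairs. A single coding gene lay in the window at 289 members, 2 at 62 and 3 at 2, and 2 or more lay there at 18.1% (14.5 to 22.5%) of members and 19.8% (17.0 to 23.1%) of the others. Of the 411 genes, 8 had 2 members each in their window, among them RAB2A, CHRAC1, MROH1, ZNF250 and ZNF706 on chromosome 8 and SNAP29 with PI4KA on chromosome 22. These pairs share a target and are not independent.

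Gene groups were described by how many of their genes at a shared pair were members, beside 35.2% of all genes at shared pairs and a median log2 ratio of 0.57. Nuclear genes of oxidative phosphorylation had 7 of 15 at members (46.7%), with a group median of 0.53. In the order vector, then APOC2, NDUFV2 had pileups of 21.8 and 57.7 (ratio 1.41), NDUFB9, another subunit of complex I, 26.7 and 57.7 (1.11), and CYC1, cytochrome c1 of complex III, 43.5 and 86.5 (0.99). ATP5F1A, the alpha subunit of ATP synthase, had 29.7 and 55.3 (0.90). NDUFA8, NDUFB2 and COX4I1 were the other three. Zinc finger genes of the ZNF type had 18 of 48 (37.5%, median 0.63), a share close to that of all genes. Among them ZNF250 (35.6 and 84.1), ZNF706 (34.6 and 78.1) and ZNF7 (36.6 and 81.7) lie on chromosome 8, and ZNF354B (25.7 and 54.1) on chromosome 5.

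Groups tied to growth were represented by a few members each. Of 15 cell cycle and E2F genes at shared pairs, 3 were members (median 0.58). They were the cohesin gene SMC1A (22.8 and 49.3), the kinase gene CDK2 (24.7 and 46.8) and the checkpoint kinase gene CHEK2 (28.7 and 54.1). DNA repair had 3 of 6, the recombination gene RAD52 (28.7 and 55.3), the nucleotide excision repair gene XPA (38.6 and 68.5) and PARP1 (23.8 and 39.6). The proteasome had 3 of 6, PSMD5 (27.7 and 54.1), PSMA7 (35.6 and 63.7) and PSMD2 (28.7 and 48.05). Cytosolic ribosomal proteins had 2 of 13 (15.4%), RPL8 (35.6 and 72.1) and RPL35 (37.6 and 66.1), and mitochondrial ribosomal proteins had 1 of 8, MRPL41 (39.6 and 73.3). Spliceosome and splicing genes had 4 of 13 (30.8%), led by SF3A1 (23.8 and 46.8). Polymerase, TAF and Mediator genes had 3 of 14 (21.4%), GTF2H5, GTF3C5 and MED27. With 6 to 15 genes a group, none of these counts separates a group from all genes.

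Histone methylation enzymes and their partners, the family of PHF8 itself, had 2 of 16 genes at members (12.5%), and the group median of 0.37 lay below that of all genes. With 16 genes the count is small, and its difference from all genes was not tested. WDR5 is a core subunit of complexes that place methyl groups on lysine 4 of histone H3. It had 29.7 and 58.9 (ratio 0.99, counting interval 0.30 to 1.69), and 0.81 against a stronger vector peak in the same APOC2 peak. EHMT1, a methyltransferase for lysine 9 of histone H3, had 22.8 and 39.6 (0.80, -0.01 to 1.64). The interval of EHMT1 thus reached below 0. Of 29 ubiquitin ligase and deubiquitinase genes, 9 were members (31.0%), with RNF141 (26.7 and 68.5), FBXO32 (27.7 and 54.1) and KLHL22 (20.8 and 38.4) among those with high ratios.

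Of 79 cholesterol and fatty acid genes, the group of the overexpressed apolipoprotein, 3 had a shared pair, as had 1168 of all 20056 coding genes, and 2 of the 3 were members. SQLE, which encodes squalene epoxidase, had 25.7 and 52.9 (1.04), and MVD, an enzyme gene of the mevalonate pathway, had 30.7 and 60.1 (0.97). A further sterol synthesis gene outside the list, CYP51A1, was also a member (23.8 and 40.8, ratio 0.78). It was named after its value had been seen and adds nothing to the count. Among other genes of lipid enzymes at shared pairs, GPAT4 (0.74), SGMS2 (1.28) and MBOAT2 (1.03) were members. DGAT1 (0.42), AGPAT2 (0.67), LPGAT1 (0.67), LPIN2 (0.54) and ACAA2 (-0.33) were not. These are examples from a larger number, named outside the rule with their values known, and give no share. Adhesion and TGF-beta genes had 3 of 6, ITGA2, the catenin-like gene CTNNAL1 (33.6 and 62.5) and the laminin gene LAMA5 (30.7 and 51.7). Autophagy and lysosome genes had 2 of 8, VPS13B and MAP1LC3B, the latter an LC3 gene of the autophagosome (37.6 and 64.9). The lysyl-tRNA synthetase gene KARS1 was the 1 member among 3 aminoacyl-tRNA synthetase genes, and DNAJC25 the 1 among 6 immediate early and stress genes. There was no member among 4 WNT, MYC and colon cancer driver genes, 2 mitochondrial import and translation genes and 1 replication-dependent histone gene at shared pairs, and no HOX gene had a shared pair. With at most 8 genes a group at shared pairs, the counts of these groups separate none of them from all genes. Of 10 colon epithelium markers, CDX2 had a boundary peak in both libraries and KRT8 and KRT18 in the APOC2 library alone, and none of 4 blood and 4 fibroblast markers had one. A PHF8 peak is no measure of expression, so these counts do not identify the cells.

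Members lay on 22 chromosomes, with 71 on chromosome 8 and 50 on chromosome 9. Those chromosomes held 121 of 353 members (34.3%, 29.5 to 39.4%) and 185 of 650 other coding-gene pairs (28.5%, 25.1 to 32.0%). The share of coding-gene pairs that were members was 41.0% (34.0 to 48.5%) on chromosome 8 and 37.6% (29.8 to 46.1%) on chromosome 9. It was highest on chromosome 16 (23 of 50, 46.0%, 33.0 to 59.6%) and lowest on chromosome 5 (12 of 55, 21.8%, 12.9 to 34.4%) among chromosomes with at least 50 pairs. Only the interval of chromosome 5 excluded the 35.2% of all coding-gene pairs. Outside chromosomes 8 and 9, 232 of 697 coding-gene pairs were members.

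**Figure D5:**
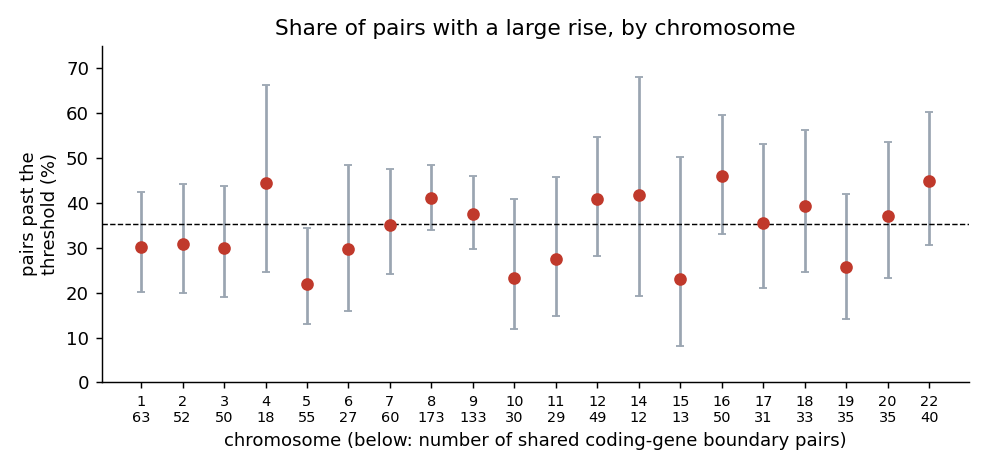
Share of shared coding-gene boundary pairs past the threshold of 0.7 log2 on the 20 chromosomes with at least 10 pairs, in percent, with 95% Wilson intervals. The dashed line is 35.2%, the share over all 1003 pairs. Chromosome 16 is at 46.0% and chromosome 5 at 21.8%.

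As the plot of shares by chromosome shows, most intervals spanned the common share. Members were also counted in windows of 5 Mb, and the 5 with the most members are given. They were picked for those counts, so their intervals do not test them against the 35.2% of all coding-gene pairs. Some of their pairs share genes, such as those at CHRAC1, MROH1, ZNF250 and SNAP29 with PI4KA. The window from 140000001 to 145000000 on chromosome 8 held the largest number, 25 members of 47 pairs (53.2%, 39.2 to 66.7%), among them GLI4, GRINA, CYC1, MAF1, HGH1, TONSL, RPL8 and ZNF7. On chromosome 9 the window from 130000001 to 135000000 held 11 of 18 (61.1%, 38.6 to 79.7%), with TSC1, SURF1 and WDR5, and the next window to 140000000 held 14 of 31 (45.2%, 29.2 to 62.2%). On chromosome 22 from 20000001 to 25000000, 8 of 11 pairs were members (72.7%, 43.4 to 90.3%), with BCR. On chromosome 16 from 65000001 to 70000000, 8 of 15 were (53.3%, 30.1 to 75.2%), with CBFB and NFATC3. By contrast, the window from 125000001 to 130000000 on chromosome 9 held 6 of 31 (19.4%, 9.19 to 36.3%). The median background of the vector table in the 5 windows was 4.70, 6, 6.72, 4 and 6 fragments, beside 5.00 for all coding-gene pairs. Copy number was not measured.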

How the data were processed

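PHF8 was measured by ChIP-seq in 2 libraries, 1 per condition. Per the submitters' processing notes, Bowtie2 2.2.9, MACS2 2.0 and HOMER were used with the hg38 build; control, thresholds and duplicate handling were not given in the sources used here. Per the file headers, the deposited tables hold the signal at the summit (pileup), the fold enrichment as a ratio, and the peak length. The header held no usable name for 2 columns, which were taken as the deposited -log10 p-value and -log10 q-value: a Poisson tail matched the first within 0.1 in 99.7% of 4015 vector and 99.9% of 8928 APOC2 peaks. Vector pileups were multiples of 0.990 in 99.9% (tolerance 0.0055). APOC2 backgrounds above 1.5 lay on multiples of 0.832 in 64.1% of 5639 peaks, which was taken as the scaling of the control, so APOC2 pileups and backgrounds were divided by it; the constant in the member rule, a rounding apart, gives the same 353 members. Background was (pileup + 1)/fold enrichment - 1. Read totals were unknown; with 1 common control, the APOC2 depth relative to vector was 0.824.

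Counting intervals of a ratio are exact binomial, those of shares Wilson and those of medians from order statistics, all 95%. Summit fragments lack molecular identifiers and summits are maxima, so intervals cover counting error only. Strand came from the promoter table, which had 79.0% of 20056 coding genes. Named genes were the 10 members with the highest ratio, the 10 with the highest vector pileup, the 5 at either end of length and background ratio, 3 pairs on either side of the threshold, and up to 4 by ratio of each gene list. Members, lists and rules were chosen with earlier results of these data known, and list patterns that matched unrelated genes were narrowed later. The comparison with the strongest vector peak, its exclusions, the 5 Mb windows, GC bands and motif counts were chosen after seeing the data. A few genes that the rule selects are not reported here. Pairing and scaling were tested on simulated data. Python 3.11.15, numpy 2.4.6, scipy 1.17.1 and pandas 2.3.3 were used.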

Additional observations from a re-analysis of the deposited data

How the results depend on the processing

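With 1 library per condition no result could be set against replicates, and no sample could be left out. No paired analysis was possible because each condition has 1 library. Of 103 recomputed summary values, 83 stayed within their interval (for the number of members, within 1.5 times). The number of members was 353. It was 575 with a threshold of 0.5 and 94 with 1, 119 with raw pileup, 170 when both peaks had to reach a fold enrichment of 5, and 232 without chromosomes 8 and 9. With fold enrichment as the measure there were 317, of which 265 were among the 353, and without the added 1 there were 382, of which 289 were. The median vector pileup of 28.7 was 24.7 with a threshold of 1 or with raw pileup and 26.2 without chromosomes 8 and 9. The median log2 length ratio of 0.61 was 0.41 when 50% of both peaks had to overlap, 0.77 with a threshold of 1 and 0.76 with raw pileup. The median log2 ratio of background was -0.077 with fold enrichment and -0.057 without the added 1, as members chosen by these measures are chosen partly for a low APOC2 background. The median log2 ratio of fold enrichment, 0.83, was 0.72 and 1.02 with thresholds of 0.5 and 1, 0.99 with raw pileup, 0.89 with fold enrichment as the measure and 0.77 when both peaks had to reach 5. The share on chromosomes 8 and 9, 34.3%, was 42.9% under that same limit and 18.8% with gene starts only, since no strand was known on chromosome 8. Among 18 named pairs, 3 reversed: TRAPPC13 with SHLD3 and TRIM23 to -0.41 with fold enrichment and -0.92 without the added 1, ARFGEF3 to -0.13 and -0.50, and TRAPPC11 with RWDD4 to -0.14 and -0.38. IFI27L1 with DDX24 moved to 0.39 and 0.18, and GRIP1 to 0.62 without the added 1; by these measures SLC46A1, LRIG1 and RINT1 moved upwards. Of 3 alternatives chosen after seeing the data, the strongest vector peak in each APOC2 peak gave 347 members, pairs with 1 vector peak gave 337 and pairs with the APOC2 summit inside the vector peak gave 331; under the first, SHARPIN with MAF1 moved to 0.84 and GRIP1 to 0.71. Where no cause is given, the cause was not tested.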
